A study of Bos taurus with 179 samples.

Results

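A set of 55 genes was described that passed a detection rule only in growing bovine oocytes above 120 μm in diameter. A gene was low in a size group when at least 50% of the oocytes of that group had 0 counts for it, and the genes taken were not low in the largest oocytes and low in each of the 7 smaller groups. The rule found 55 of 17969 gene IDs with at least 1 count, or 0.306%. The same rule applied to each other group in turn found 97 genes for the smallest oocytes, 85, 63 and 57 for the following groups, 3 and 10 for the groups after these, and 46 for the group next below 120 μm. A gene symbol could be paired with 16 of the 55 IDs, and the other 39 are given by their Ensembl ID.

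The oocyte grows for a long period inside its follicle while it transcribes and stores mRNA that the early embryo will use. Transcription falls towards the end of growth, and a fully grown oocyte keeps most of its mRNA in stable, repressed form. A transcript that first appears in the largest oocytes would be a late addition to this store, whereas a transcript close to the limit of detection can be seen or missed in a single oocyte at any stage.

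Single oocytes of Bos taurus came from abattoir ovaries. Fully grown oocytes were aspirated first, from follicles visible on the surface. Growing oocytes were then freed by slicing the ovarian cortex and passed through mesh filters. The slicing was done in a cold medium that held heparin and cilostamide, a phosphodiesterase inhibitor. Recovered oocytes were washed in this medium, freed of their surrounding cells, measured and frozen. Polyadenylated mRNA was amplified by Smart-seq2 and sequenced. The labels do not give the route of each oocyte, so collection route and size cannot be told apart. The analysis used the oocytes that the study kept after quality control, all but 14 of the 179 sequenced. Group A held 21 oocytes of 48 to 59.91 μm, group B 25 of 60 to 69.63 μm, group C 23 of 70.36 to 79.5 μm and group D 24 of 80.5 to 89.13 μm. Group E held 21 oocytes of 90.28 to 99.5 μm, group F 18 of 101 to 109.63 μm, group G 19 of 110.5 to 119 μm and group H 14 of 121.5 to 135 μm. Libraries were made in 2 replicates, and because replicate 1 was read at 150 bp and replicate 2 at 75 bp, read length and batch cannot be told apart. Group H had 10 oocytes in replicate 1 and 4 in replicate 2. The animals are not named, so oocytes may share an animal, and a p-value measures only the spread between library sums.

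The depth per oocyte ranged from 277126 to 8038061 counts over all groups, and from 566827 to 8038061 in H. The deepest oocyte of all, H33, held 27.9% of the counts of group H. Reads carry no molecular identifiers, so a few counts can stand for a single molecule, and limits set by counts cover counting error only. Levels are CPM (counts scaled to a common library total), the share of an oocyte's counts, and the amount of mRNA per oocyte was not measured. Oocyte markers were checked first: 5 of 15 listed markers had a paired ID, and their summed level was 6568 to 11320 CPM in H against 3690 to 10632 CPM in A to G. Of 7 paired granulosa markers, AMHR2, AREG and BTC were at 0 in H, and the summed level of all 7 had a median of 15.8 CPM in H (2.63 to 32.6) and group medians between 9.14 and 28.0 CPM in A to G. Theca, endothelial and immune markers likewise showed no median of the summed level in H outside the range of the medians in A to G, and COL1A1, COL3A1, CDH5, CD34, CD14, CD74, BOLA-DRA and CTSS were at 0 in H. Other genes of these lists had a higher mean or a higher share of oocytes in H: COL1A2 had a mean of 8.86 CPM in H, against 1.53 to 7.58 CPM in A to G, CLDN5 was detected in 42.9% of the oocytes of H and at most 33.3% of another group, and CX3CR1 in 42.9% and at most 22.2%. The part of other cells in the values below was not tested.

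The counts went against the name "detected only above 120 μm". All 55 genes had counts in smaller oocytes: each was detected in 14 to 63 oocytes of A to G, with a median of 42. A to G held most of the oocytes, so these numbers are not comparable with the number detected in H. Counts occurred in all 7 smaller groups for 49 of the genes and in at least 5 of those groups for the other 6. Over all pairs of a gene and an oocyte, 470 of 770 pairs (61.0%) had a count in H and 2338 of 8305 (28.2%) in A to G. The set is therefore called below the genes that pass the rule in H.

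Many genes passed narrowly. In H, 35 genes were detected in 8 of 14 oocytes, the lowest number that passes, 12 in 9 oocytes, 6 in 10 and 2 in 11. In A to G, the group with the next highest share of oocytes lay at exactly 50% for 11 genes and at 45% or more for 36. Of the 11, ENSBTAG00000012943 and ENSBTAG00000016414 were at 50% in F and the rest, among them ENSBTAG00000009365 and ENSBTAG00000044129, in D. D and F were the groups below 120 μm with an even number of oocytes, where exactly 50% can occur. That next group was G for 22 genes and D for 13. Just outside the rule were 78 genes that were low in A to G and detected in 7 of 14 oocytes of H, with a median pooled level in H of 0.939 CPM, against 1.25 CPM for the 35 genes in 8 of 14. A further 104 genes were not low in H and in a single other group, which was G for 76 of them. The pooled level is the sum of a gene's counts over a group divided by the group's total.

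**Figure D1:**
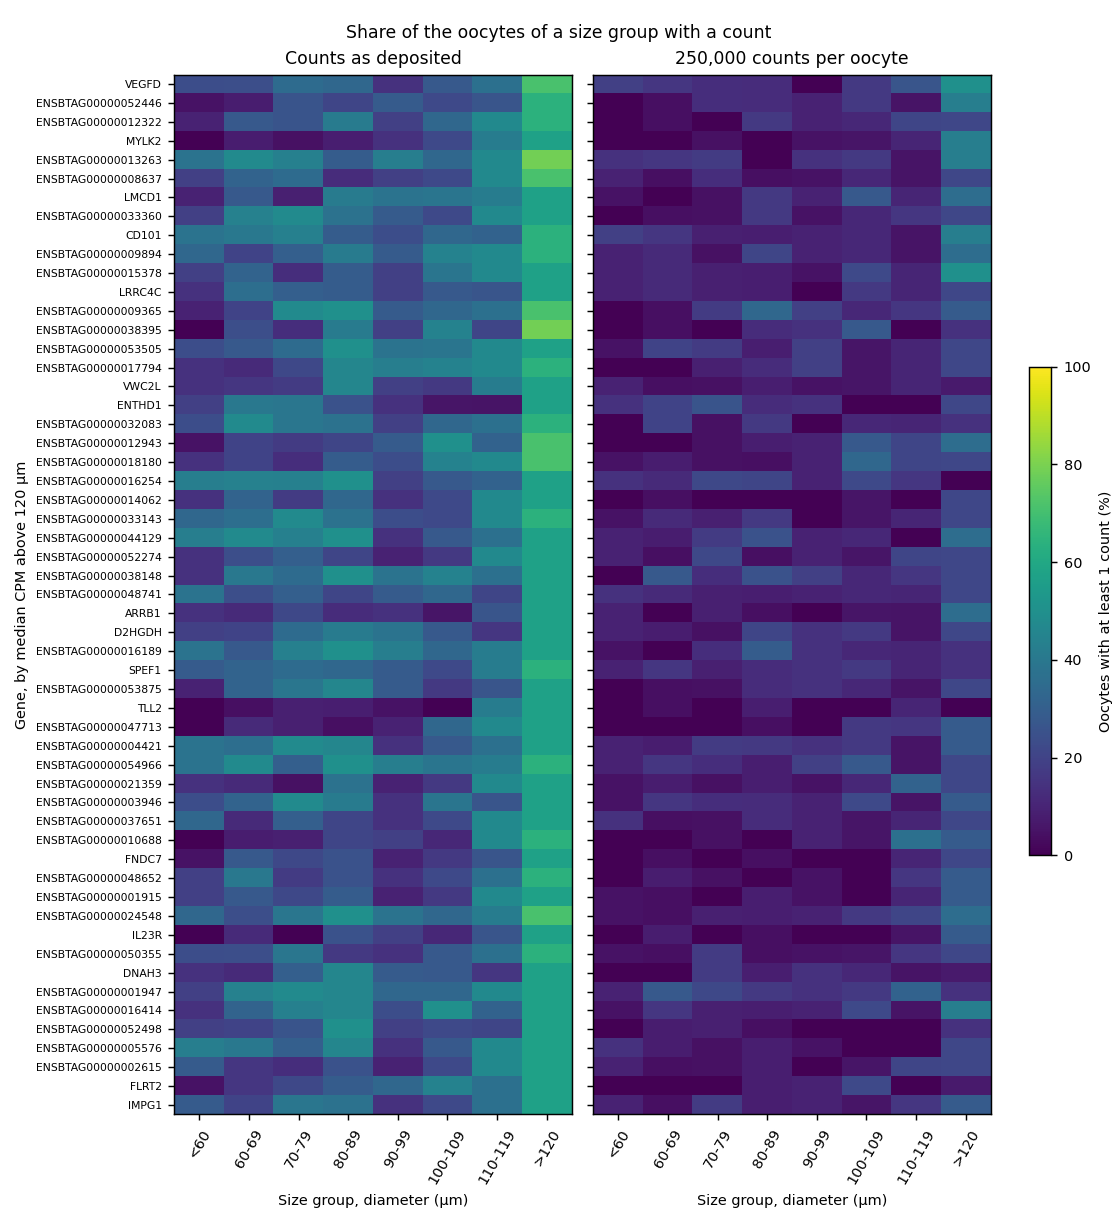
Each row is a gene, each column a size group, and the colour is the percent of oocytes with at least 1 count, for the deposited counts (left) and after random thinning of each oocyte to 250000 counts (right). On the left the largest oocytes lie above 50% in each row by the rule and the next group often lies just below, and on the right 37 of 55 genes have their highest share in H although no share in H passes 50%.

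The genes were rare transcripts. Their median CPM over the oocytes of H ran from 0.240 to 3.78, with a median of 0.799, and lay below 1 CPM for 38 of 55. Their pooled level in H had a median of 1.29 CPM (0.382 to 7.16), where the median over all genes with a count was 5.94 CPM and 36.1% of those genes had a lower pooled level than 1.29 CPM. In A to G the pooled level of the set had a median of 0.543 CPM. Of the detections in H, 26.8% rested on 1 count and 61.1% on 3 counts or fewer, with 33.3% and 64.2% in A to G. The largest count of a gene in any oocyte of H was between 3 and 84.

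The level in H was often but not always the highest. The pooled level was highest in H for 35 of 55 genes, where 16.3% of all genes had their highest level in H, a contrast that the rule used and from which nothing is read. With H33 left out the number was again 35, of which 33 were the same genes. For the other 20 genes the highest level was in F (8 genes), G (4), D (3), A (2), E (2) or B (1). H exceeded the next group at least 2-fold for 15 genes and A to G together for 37. For 39 genes the oocyte with the highest CPM was one of A to G.

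Among secreted and matrix proteins, VEGFD, the ligand that drives growth of lymphatic vessels, had the highest median level of the set. It was detected in 10 of 14 oocytes of H with 0 to 18.4 CPM and a median of 3.78. Its pooled level was 0.698, 0.548, 0.630, 0.675 and 0.484 CPM in A to E, 2.32 in F, 3.84 in G and 6.26 in H, so F and G lay above A to E. In F, 49 of 59 counts (83.1%) came from F29, and without this oocyte F had 0.568 CPM, within the range of A to E, whereas G had 3.05 CPM without its own highest oocyte. The highest single value, 21.0 CPM, was in A to G, and the groups overlapped.

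TLL2, a tolloid-like metalloprotease that cleaves matrix and growth factor precursors, had a steeper course at a lower level. It was detected in 0 of 21 oocytes of A, 0 of 18 of F, 1 or 2 oocytes in each of B to E, 8 of 19 in G and 8 of 14 in H. A count of 0 allows a pooled level of up to 0.0523 CPM in A and 0.118 CPM in F. The pooled level was 0.269 CPM in G and 0.869 CPM in H, and all of TLL2 in H came to 25 counts. VWC2L, a secreted protein related to antagonists of bone morphogenetic proteins, was detected in 8 of 14 oocytes of H with a median of 1.11 CPM (0 to 4.96), and its pooled level of 1.29 CPM in H was followed by 1.06 CPM in E. IMPG1, a proteoglycan of the photoreceptor matrix, had the lowest median of the set, 0.240 CPM in H, and its pooled level of 0.661 CPM there was below the 0.707 CPM of F.

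Among surface proteins, IL23R, a subunit of the interleukin 23 receptor, was detected in 0 of 21 oocytes of A and 0 of 23 of C, where a count of 0 allows up to 0.0523 and 0.0610 CPM, in 6 of 24 in D, 5 of 19 in G and 8 of 14 in H. Its pooled level was 1.74 CPM in H, 0.799 in D and 0.786 in G, and 4.00% of its counts in H came from H33. CD101, an immunoglobulin-type protein of leukocytes, had a median of 1.62 CPM in H (0 to 8.36) and a pooled level of 1.91 CPM, next to 1.79 CPM in C. LRRC4C, a ligand of netrin-G, had 1.53 CPM in H, 1.17 in G and 1.10 in F. FLRT2, a leucine-rich adhesion protein, was highest in D with 1.40 CPM and had 0.382 CPM in H, although it was detected in 8 of 14 oocytes of H and 7 of 24 of D. FLRT2 thus passed the rule in H without having its highest level there.

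Among genes named for muscle and cilia, MYLK2, the myosin light chain kinase of skeletal muscle, was detected in 0 of 21 oocytes of A, 1 to 4 oocytes in each of B to F, 8 of 19 in G and 8 of 14 in H. Its level in H was 0 to 3.54 CPM with a median of 2.33, and the highest value in A to G was 2.98 CPM. Pooled, it had 0.449 CPM in G and 2.16 CPM in H, a 4.80-fold difference, and 1.98 CPM in H without H33. LMCD1, a LIM domain cofactor of transcription, had a median of 1.68 CPM in H (0 to 9.90) and a pooled level of 3.75 CPM. It had 1.30 CPM in F and 0.763 CPM in G, and the level in F without its deepest oocyte, F29, was not computed. SPEF1, a microtubule protein of flagella, had 1.74 CPM in H, of which H33 gave 66.0% of the counts, and 0.820 CPM without this oocyte. DNAH3, a heavy chain of axonemal dynein, was highest in E with 1.58 CPM and had 0.521 CPM in H.

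Of the signalling adaptors, ARRB1, beta-arrestin 1, had the largest ratio of H to the next group, 5.54-fold over F. It rested on 1 oocyte: 74 of its 94 counts in H (78.7%) were in H33, and without H33 the pooled level fell from 3.27 to 0.965 CPM. ENTHD1, a protein with an epsin N-terminal homology domain, had 2.06 CPM in A, 0.0786 in F, 0.0225 in G and 0.973 in H. The level in A rested largely on 1 oocyte, A427, with 94 counts, and without it A of replicate 2 fell from 2.60 to 0.498 CPM. It was detected in 1 of 18 oocytes of F, 1 of 19 of G and 8 of 14 of H. D2HGDH, the mitochondrial dehydrogenase of D-2-hydroxyglutarate, had 2.22 CPM in H and 1.26 CPM in F. FNDC7, a fibronectin type III domain protein, had 1.70 CPM in H and 0.707 CPM in F. The oocyte F29 held 7856854 of the 25450424 counts of F. The levels of ARRB1, D2HGDH and FNDC7 in F were not computed without it, so their ratios to F may also rest on 1 oocyte.

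Of the genes without a symbol, ENSBTAG00000052446 had the highest pooled level of the set, 7.16 CPM in H against 1.55 CPM in E, the next group. It was detected in 9 of 14 oocytes of H, with a median of 3.26 CPM and a maximum of 29.01 CPM, while the maximum in A to G was 14.1 CPM. Without H33 the level in H was 8.97 CPM, and the level without the oocyte at 29.01 CPM was not computed. ENSBTAG00000012322 had a median of 2.45 CPM in H (0 to 5.76), ENSBTAG00000013263 1.93 CPM (0 to 5.29) and ENSBTAG00000008637 1.74 CPM (0 to 7.06). ENSBTAG00000033360 had 1.63 CPM (0 to 2.88) and ENSBTAG00000009894 1.39 CPM (0 to 6.69). For the 4 of these 5 genes other than ENSBTAG00000008637, the highest single oocyte was in A to G, which held most of the oocytes. ENSBTAG00000013263 and ENSBTAG00000038395 were the genes found in 11 of 14 oocytes.

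**Figure D2:**
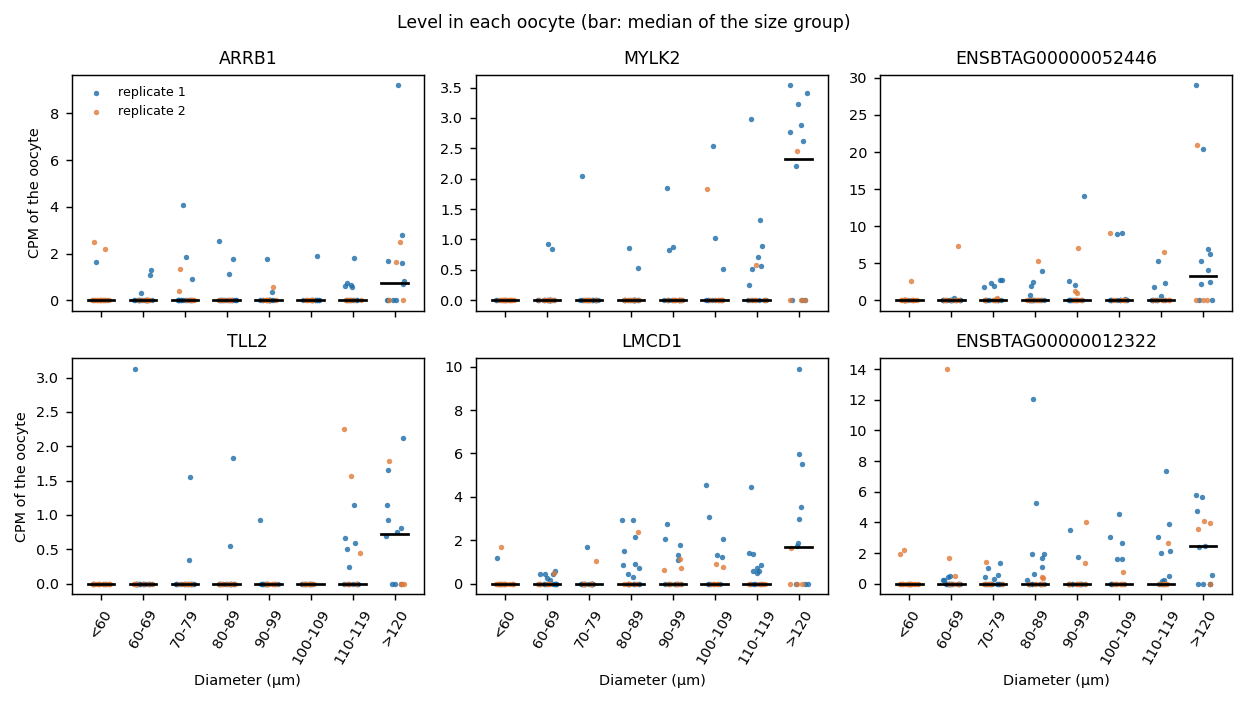
CPM in each oocyte by size group for the 6 genes with the largest ratio of pooled CPM in H to the next group, coloured by replicate, with a bar at each group's median. The medians are 0 in each smaller group and above 0 in H, single oocytes of smaller groups reach the range of H in several panels, and the level of ARRB1 in H comes mainly from 1 oocyte at 9.21 CPM.

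Most genes with a symbol that the study listed for the largest oocytes lay at the edge of the rule. Entries of that list without a symbol were not compared. Of its 63 entries with a symbol, which the study chose on these samples, 16 are genes of the set and 47 are not. All 47 had 0 counts in exactly 50% of the oocytes of H, which the rule counts as low, and were low in A to G. They included NRTN, SEMA3F, CACNA1G, MYH7, AKAP4 and OTUD1, each detected in 7 of 14 oocytes of H. Over smaller oocytes, 22 of the 47 could be tested for a trend and 39 for G against A to F, and the quasi-likelihood test of edgeR called 0 of them in either comparison after adjustment, with 2 and 4 higher and 0 lower at an unadjusted p below 0.05. At that unadjusted p 19.0% of all genes were higher and 17.7% lower for the trend, and 17.1% and 13.1% for G. After adjustment, over all genes 12.8% rose and 10.8% fell with diameter and 9.82% were higher and 5.15% lower in G, but the 47 genes were low in A to G by choice, so these shares are background only.

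The number of genes of the set found in an oocyte moved with depth. H oocytes had 18 to 53 of the 55 genes, with a median of 30.5, and oocytes of A to G had 1 to 45, with a median of 14. The medians of A to G were 10, 14, 17, 17, 11, 13.5 and 23 in order of size. These mix the replicates: the median was 27 in replicate 1 and 9 in replicate 2 for G, and 35.5 and 24 for H. H33 and H34, with 8038061 and 4336856 counts, each held 53 of the 55 genes. F29, an oocyte of 109.57 μm with 7856854 counts, held 45. Over the 14 oocytes of H the number found correlated with the log10 of total counts (r = 0.798, rho = 0.760) and over the 19 of G likewise (r = 0.807, rho = 0.855). With diameter, r was −0.431 within H and 0.199 over the oocytes of A to G. Oocytes share batches and possibly animals, so these correlations are descriptions.

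**Figure D3:**
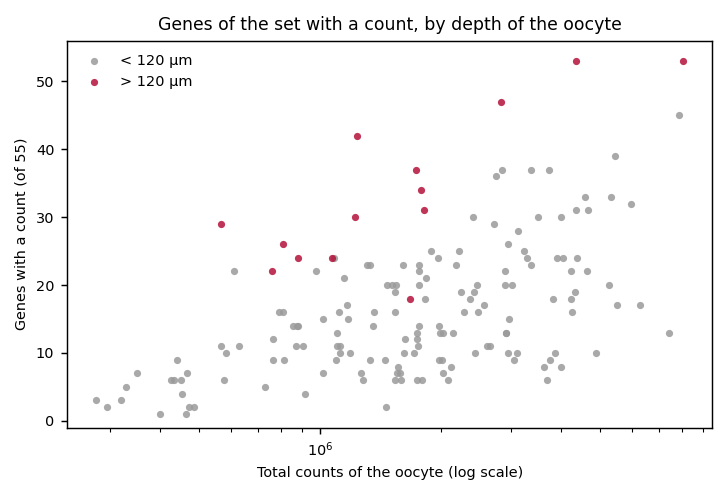
Genes of the set with at least 1 count in each oocyte (vertical axis, of 55) against the oocyte's total counts on a log scale, with oocytes above 120 μm in red and smaller oocytes in grey. The number rises with depth in both, from 1 to 45 in the smaller oocytes and from 18 to 53 above 120 μm, and H33 and F29, the deepest of each, held 53 and 45.

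The median depth was 1457610 counts in H and 1768510 in A to G, so the typical oocyte of H was not deeper. Thinning to 250000 counts lowers depth in all groups. Genes near 0.799 CPM can then hardly be found in 8 of 14 oocytes, so their loss was set in advance and nothing is read from it. At this depth the rule kept almost none of these genes. When each oocyte was thinned at random to 250000 counts, between 0 and 2 of the 55 genes were not low in H over 10 draws, and 0 at 100000 counts. The median gene of the set was found in 3 of 14 oocytes of H at 250000 counts, with a range of 0 to 7. The rule itself then found 81 genes (0.489%) in the first draw and 67 to 98 over the draws, of which 1 gene, ENSBTAG00000047676, passed in each draw. With the deposited counts that gene was not low in F and G either, and its pooled level was lower in H than in F (23.4 CPM). At 100000 counts it found 90 genes (0.574%). The level of the 81 genes in H was higher, with a median of 3.00 CPM, against 0.799 CPM for the 55 genes.

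More of the genes were found in oocytes of H also at equal depth, in the contrast that chose them. At 250000 counts, oocytes of H held 5 to 26 of the 55 genes with a median of 13, and oocytes of A to G 0 to 19 with a median of 4, with medians of 6.5 in F and 6 in G. The highest share of oocytes was in H for 37 of 55 genes, against 8.85% of all genes. The summed level of the 55 genes was 46.6 to 129 CPM in H, with a median of 76.1, and 2.05 to 100 CPM in A to G, with a median of 26.2. Both measures overlapped between H and the smaller oocytes.

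**Figure D4:**
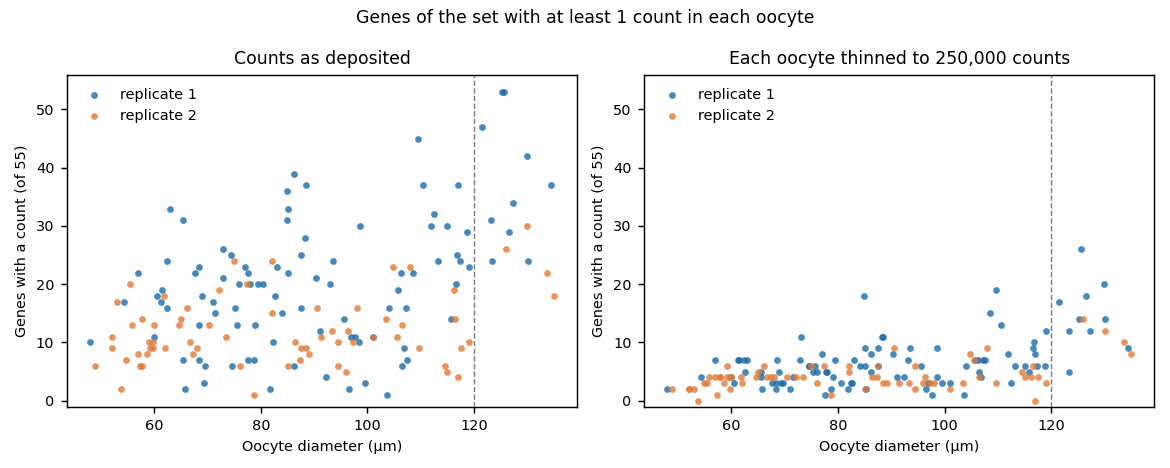
Genes of the set with at least 1 count (of 55) against oocyte diameter in μm for the deposited counts (left) and at 250000 counts per oocyte (right), coloured by replicate, with a dashed line at 120 μm. Above the line the range is 18 to 53 on the left and 5 to 26 on the right, and below the line it is 1 to 45 and 0 to 19.

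The replicates were then taken apart. In replicate 1, 49 of the 55 genes were not low in H (66.4% of all genes), 19 were low in all of A to G (23.5%) and 17 met the whole rule (0.423%). In replicate 2, 15 were not low in H (60.5%), 42 were low in all of A to G (26.5%) and 7 met the rule (0.182%). No gene met the rule in both. The pooled level was highest in H for 27 genes in replicate 1 (12.1%) and for 23 in replicate 2 (13.2%), and for 15 genes in both (3.45%). Those 15 included VEGFD, TLL2, IL23R, MYLK2, LMCD1, ARRB1 and D2HGDH, and ENSBTAG00000052446, with 7.04 CPM in replicate 1 and 7.83 CPM in replicate 2. In replicate 2 that last level came from 1 of 4 oocytes. For MYLK2 the levels in H were 2.43 and 0.672 CPM and for LMCD1 4.36 and 0.448 CPM, so the size differed between replicates. The set was chosen on both replicates together, so these counts are not independent of the choice. The shares of all genes not low in H include widely detected genes and are not comparable with those of this rare set.

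Genes chosen in one replicate were therefore read in the other, whose values had no part in the choice. Of 74 genes that met the rule in replicate 1, 0 met it in replicate 2. Over all genes 0.182% met it there, so 0 lies near that share. In replicate 2, 6 were not low in H (8.11%, against 60.5% of all genes) and 11 had their highest pooled level in H (14.9%, against 13.2%). The 60.5% includes widely detected genes, whereas the 74 were chosen as low in A to G, so these shares are not comparable. At 250000 counts the 4 oocytes of H in replicate 2 held 5 to 9 of these 74 genes with a median of 7. Oocytes of A to G in replicate 2 held 1 to 10 with a median of 5, and the medians of C, F and G were 7, 7 and 6. In the replicate of choice the same genes gave a median of 17.5 in H and 4 in A to G. Their summed level in replicate 2 was 51.4 to 58.3 CPM in H, with a median of 54.9. The median was 55.4 CPM in G, 42.6 in F and lower in A to E, down to 22.5 in A. Over A to G it was 32.97 CPM, and single oocytes reached 92.2 CPM. By this measure H was thus above A to F by median but not above G.

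In the other direction, 0 of 31 genes that met the rule in replicate 2 met it in replicate 1. Over all genes 0.423% met it there, so 0 again lies near that share. In replicate 1, 17 of the 31 were not low in H (54.8%, against 66.4% of all genes) and 8 had their highest pooled level in H (25.8%, against 12.1%). The 66.4% again includes widely detected genes and is not a comparable share. At 250000 counts the 10 oocytes of H in replicate 1 held 2 to 11 of these 31 genes with a median of 7.5, and those of A to G held 1 to 16 with a median of 4. The medians of D, F and G were 5.5, 6 and 6. In replicate 2 itself the medians were 10.5 in H and 3 in A to G. The summed level of the 31 genes in replicate 1 had its highest group median in H, 53.3 CPM (22.97 to 106.7). The median was 44.6 CPM in G and 27.8 CPM over A to G, where single oocytes reached 162.7 CPM. With 1 sum per group in each replicate no test was made.

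**Figure D5:**
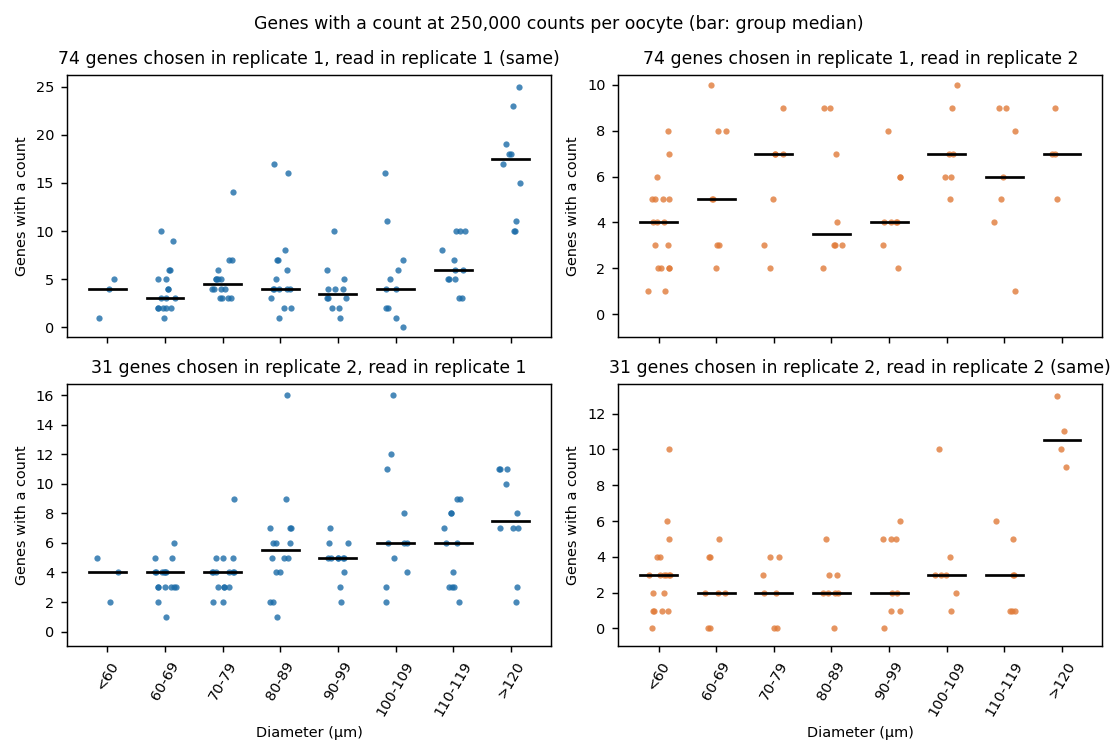
Genes with a count at 250000 counts per oocyte in each size group, for the 74 genes that met the rule in replicate 1 (top) and the 31 that met it in replicate 2 (bottom), read in replicate 1 (left) and replicate 2 (right), with a bar at each group's median. Where the genes were chosen, H has medians of 17.5 (10 to 25, A to G 0 to 17) and 10.5 (9 to 13, A to G 0 to 10), and in the other replicate medians of 7 (5 to 9, A to G 1 to 10) and 7.5 (2 to 11, A to G 1 to 16).

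Counts summed by group and replicate were fitted over all genes to give the size of the difference between H and the mean of A to G. Of 14087 genes tested, 5.34% were higher and 3.63% lower in H at an adjusted p below 0.05 in the quasi-likelihood test of edgeR (Benjamini-Hochberg). All 55 genes of the set were kept. The rule chose them on this contrast and on the same counts, so their positive differences follow from the choice and are given as sizes only. The log2 differences ran from −0.72 to 4.43 with a median of 1.36. The largest were those of TLL2 (4.43, SE 1.23), MYLK2 (4.15, SE 0.96), ENSBTAG00000047713 (3.93, SE 0.94) and IL23R (3.92, SE 0.94), followed by ENSBTAG00000052446 (3.68, SE 0.66), ENSBTAG00000010688 (3.27, SE 0.92) and ARRB1 (3.18, SE 0.91). VEGFD had 2.68 (SE 0.83).

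Changes below 120 μm were tested in A to G alone. The rule did not order these groups, but it held each gene to at most 50% of the oocytes of each of them and so left out genes that were widely detected by G. The counts of calls are therefore not comparable with those over all genes, which are given as background. Over all 13247 genes tested for a trend with diameter, 12.8% rose and 10.8% fell at an adjusted p below 0.05. Of the set, 42 of 55 genes had enough counts, 1 rose and 1 fell. The median slope of the 42 genes was 0.14 log2 units per 10 μm, and 30 slopes were positive. Comparing G with the mean of A to F, 9.82% of 13970 genes were higher and 5.15% lower, and of 52 genes of the set 2 were higher and 0 lower. Of the 2, ENSBTAG00000010688, passed the filter through G alone, and 4 of the 52 genes would not have passed without G. At an unadjusted p below 0.05, 7 were higher and 1 lower in edgeR (17.1% and 13.1% of all genes), and DESeq2 with adjustment called 2 higher and 0 lower (11.9% and 8.67% of all genes). The median difference was 0.51 log2 units, with 31 of 52 positive.

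ENSBTAG00000012943 rose with diameter. Its level in replicate 1 was 0.297, 0.0645, 0.118, 0.410, 1.45, 1.95 and 1.01 CPM from A to G, and in replicate 2 it was 0, 0.143, 0.131, 0.0507, 0.108, 1.04 and 1.94 CPM. F and G were thus above A to D in both replicates. In G of replicate 2, 16 of 19 counts (84.2%) came from 1 oocyte, and without it the sum was 0.384 CPM. The oocyte with most counts held 62.1% in F of replicate 1, where 1.57 CPM remained without it, and 57.1% in G of replicate 1, where 0.521 CPM remained. The slope was 0.82 log2 units per 10 μm (SE 0.17) with an adjusted p of 0.00161 in the quasi-likelihood test of edgeR (Benjamini-Hochberg). In H it was 1.23 CPM in replicate 1 and 1.12 CPM in replicate 2, pooled 1.22 CPM, beside 1.57 CPM in F and 1.21 CPM in G, and H passed the rule because 10 of 14 oocytes had a count, against 9 of 18 in F. It was also higher in G than in A to F by 3.05 log2 units (SE 0.95, adjusted p = 0.0373 in the same test), a call that was lost in 8 of 14 fits that left out 1 sum, with adjusted p between 0.0530 and 0.534 in those 8. Those sums were B, C, F and G of replicate 1 and D, E, F and G of replicate 2. It was also lost with no replicate block (adjusted p = 0.342 in edgeR).

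ENSBTAG00000010688 had its highest sums in G, with 0.748 CPM in replicate 1 and 3.37 CPM in replicate 2, while the sums of A to F lay between 0 and 0.432 CPM. In G of replicate 1, 15 of 26 counts (57.7%) came from 1 oocyte, and without it the sum was 0.352 CPM, within the range of A to F. Single oocytes overlapped, with 0 to 6.25 CPM in G and up to 3.08 CPM in E. The gene passed the filter on low counts through the sums of G alone, so its log2 difference of 5.06 (SE 0.87) and its adjusted p of 0.00113 in the quasi-likelihood test of edgeR (Benjamini-Hochberg) are not taken as a result. With no filter the adjusted p was 0.000361 in the same test, and in the filtered fit it was 0.0787 without G of replicate 1 and 0.122 with no replicate block. It was detected in 9 of 19 oocytes of G and 9 of 14 of H, and its level in H, 0.700 CPM in replicate 1 and 0.895 CPM in replicate 2, was no higher than in G.

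ENTHD1 fell with diameter below 120 μm. Its level from A to G was 0.297, 0.881, 1.30, 0.191, 0.401, 0 and 0.0288 CPM in replicate 1, and 2.60, 0.810, 1.44, 1.37, 0.270, 0.189 and 0 CPM in replicate 2. In A of replicate 2, 82.5% of its counts came from 1 oocyte, and without it the sum was 0.498 CPM. In B, C and D of replicate 2, 1 oocyte held 88.2%, 68.2% and 63.0% of the counts. Without that oocyte the sums were 0.105, 0.571 and 0.652 CPM. The slope was −0.71 log2 units per 10 μm (SE 0.20) with an adjusted p of 0.0130 in the quasi-likelihood test of edgeR (Benjamini-Hochberg). In H the level was 0.947 CPM in replicate 1 and 1.12 CPM in replicate 2, above E, F and G of the same replicate. With all 179 oocytes the slope was −0.42 and the adjusted p 0.149.

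MYLK2 and TLL2, detected in 8 of 19 oocytes of G each, had too few counts in A to G to be tested. With no filter on low counts, 5 genes of the set rose and 1 fell, where 9.75% of 17915 genes rose and 8.34% fell. The slopes were 0.99 (SE 0.25) for ENSBTAG00000047713 and 0.86 (SE 0.20) for ENSBTAG00000010688, with adjusted p of 0.00831 and 0.00480 in the quasi-likelihood test of edgeR, and 0.75 (SE 0.22) for MYLK2 and 0.84 (SE 0.28) for TLL2, with adjusted p of 0.0188 and 0.0421 in the quasi-likelihood test of edgeR (Benjamini-Hochberg), and TLL2 was higher in G than in A to F by 5.08 log2 units (SE 1.81, adjusted p = 0.0495). In that fit 3 genes of the set were higher in G and 0 lower (1 at an unadjusted p below 0.05), where 8.69% of all genes were higher and 4.74% lower. MYLK2 and TLL2 each reached the level that the filter asks for in 1 sum, of G, and ENSBTAG00000010688 in the 2 sums of G alone. Their unfiltered slopes, the difference of TLL2 in G and the p-values are therefore not taken as a result. By detection alone, MYLK2 and TLL2 had counts in the group next below 120 μm as well as above it. In the filtered fit VEGFD had a slope of 0.30 (SE 0.20) with an adjusted p of 0.298, and LMCD1 of 0.42 (SE 0.18) with an adjusted p of 0.0949, both in edgeR's quasi-likelihood test.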

How the data were processed

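The authors trimmed reads with Trim Galore (version 0.6.6), aligned them with HISAT2 to ARS-UCD1.2 and counted them per gene in SeqMonk. The deposited values are raw counts per oocyte, neither normalised nor batch-corrected. How strand, overlapping genes and multiple alignments were treated is not given in the sources used here, so counts of paralogs and overlapping genes are uncertain. Counts of IDs on repeated lines were summed (1 gene of the set has repeated lines). Symbols came from the study's supplementary tables. The gene set, the gene lists and the tests were chosen with earlier results of these data known.

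The rule was applied to the 165 oocytes of the study's sample table. Thinning drew counts without replacement to 250000 or 100000 per oocyte. For tests, counts were summed by group and replicate (16 sums, 14 below 120 μm), filtered with filterByExpr (minimum count 10, minimum total 15), normalised by TMM and fitted with edgeR (version 4.0.16) with the replicate as a block; genes were called at an adjusted p below 0.05. The filter used the design matrix, since the group setting kept no gene of the set for the trend. Standard errors were obtained from each test's F as the log2 difference divided by its root. Replicates are library batches, and deviations of their sums from the group means correlated within a replicate (median r = 0.543 over 28 pairs, 0.334 to 0.648). Simulated data with 200 genes changed 4-fold gave recovery of 49.0% for the trend, 54.5% for G and 49.5% for H.

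Named were all genes of the set with a symbol, the 5 others with the highest median CPM in H and genes at the edge of the rule, with full values for the 10 highest by median CPM in H. Other IDs named, and the 6 plotted by ratio, were chosen after their values were seen. DESeq2 (version 1.42.0), R 4.3.3, Python 3.11.15, numpy 2.4.6, pandas 2.3.3 and matplotlib 3.10.9 were used.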

Additional observations from a re-analysis of the deposited data

Results flagged for a closer look

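The oocyte of 139.09 μm that the study's sample table leaves out (replicate 1, 3663922 counts) was not used to choose the genes. It held 13 of the 55 genes, fewer than each of the 14 oocytes of H, which held 18 to 53. It also had fewer genes detected in all, 8917 against 10440 to 13912 in H, so the low number is not particular to the set. For 3 of the genes its level was above that of every oocyte of A to G analysed: ENSBTAG00000052446 had 66.9 CPM (245 counts), where A to G reached 14.1 CPM and H 29.01 CPM; ENSBTAG00000053505 had 10.6 CPM (39 counts), where A to G reached 6.96 CPM and H 4.84 CPM; and FNDC7 had 3.28 CPM (12 counts), where A to G reached 2.98 CPM and H 7.72 CPM. The share of all genes that lay above every oocyte of A to G in this oocyte was not computed, so nothing is read from these 3. MYLK2 had 7 counts and VEGFD, TLL2 and IL23R had none. The other 13 oocytes outside the table held 0 to 20 of the genes.

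The summed level of the 55 genes was 44.0 CPM in 1 oocyte of group E, replicate 2 (E305), with the next highest of the 9 oocytes at 25.8 CPM and the lowest at 13.1 CPM. The gap to the next oocyte was 0.587 of the range of the set, above the critical value of Dixon's test at the 95% level. It was the only value above its critical value in 16 checks, of 2 measures in 8 sets of 4 to 10 oocytes. For each measure, about 1 in 20 sets passes this level by chance.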

How the results depend on the processing

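The rule found 55 genes. It found 120 when low meant more than 50% of oocytes (44 shared with the 55), 87 with all 179 oocytes, 90 at 100000 counts, 31 in replicate 2 alone and 23 (22 shared) without H33 and H34, an alternative chosen after seeing the data. Without 1 oocyte of H it found 58 to 117, the 55 included, since 7 of 13 then passes. At least 2 counts gave 52 genes (13 shared), close in number but mostly other genes.

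Over all genes, 1263 differed between H and A to G, 3128 had a trend and 2091 differed between G and A to F. With no replicate block these were 5, 1180 and 48; DESeq2 gave 1896 for H. Leaving out 1 sum gave 138 to 1742, 2475 to 3461 and 247 to 2443, the lowest for H without H of replicate 1 (the next lowest without H of replicate 2) and for G without G of replicate 1.

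Of the set, 2 genes had a trend: 5 with DESeq2, 6 with no filter, 1 with all 179 oocytes, and 2 to 6 without 1 sum (6 without B of replicate 2, 5 without A of replicate 1). The 2 genes that differed between G and A to F were 0 with no replicate block and 0 to 3 without 1 sum (0 without G of replicate 1). Without the block, ENSBTAG00000010688 kept a difference of 4.79 (adjusted p = 0.122 in edgeR's quasi-likelihood test) and ENSBTAG00000012943 of 2.65 (adjusted p = 0.342). The block changed no call on the trend of the set. At 250000 counts none of the 55 genes passed the filter for either test, so depth limits what these counts can show. No direction reversed among the 4 calls on single genes.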
